A study of Mus musculus with 6 samples.

Results

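The respiratory chain subunit genes of mouse macrophages were followed here. They are 89 genes named for parts of complexes I, III, IV and V of the inner mitochondrial membrane. Among them are also Cox7a2l, which joins complexes III and IV, and Atp5s, a coupling factor of complex V. All 89 were taken by symbol from the deposited gene count table. A gene was a member where it is annotated as protein coding, where its symbol starts with Ndufa, Ndufb, Ndufc, Ndufs, Ndufv, Uqcr, Cox4i, Cox5, Cox6, Cox7, Cox8, Atp5, mt-Nd, mt-Co, mt-Cyt or mt-Atp but not with Ndufaf, and where its mean count over the 6 libraries was at least 10. Of 55421 genes in the table, 95 had such a symbol and 89 reached the mean count, 76 of them encoded in the nucleus and 13 in the mitochondrial genome. Just inside the minimum lay mt-Atp8 with a mean of 11.7 counts and Cox6a2 with 19.5, and just outside it Ndufa4l2 with 3.17 and Cox4i2 with 3. Of the 6 candidates left out, 2 had no count in any library, which allows up to 3 counts each.

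The wells held wild-type (WT) primary bone marrow-derived macrophages. In 3 wells the macrophages had spent 24 h in conditioned medium (CM), a mix in equal parts of RPMI-1640 with medium taken from the Lewis lung carcinoma line LL-2, and 3 untreated wells stayed in RPMI-1640 alone. Both groups received 10% fetal bovine serum, 1% penicillin/streptomycin and 20 ng/mL of the growth factor M-CSF. No label ties the wells to separate mice, so each p-value reflects well-to-well spread that may be technical only. Messenger RNA was enriched with oligo(dT) and sequenced, and total counts were 28447825 to 30040682 in CM libraries and 24179548 to 25916709 in untreated libraries, so each CM library was the deeper. Levels are CPM (counts scaled to the library total) after TMM scaling between libraries, and differences are log2 fold changes, CM minus untreated. Macrophage markers summed to 57256 to 61926 CPM in CM wells and 51040 to 60325 CPM in untreated wells, and neutrophil markers to 499 to 583 CPM in CM wells and 410 to 609 CPM in untreated wells. Single markers moved within these sums. Of 8 macrophage markers 3 were called higher and 3 lower (75%, where 27.9% of all tested genes were called). Of 9 neutrophil markers 1 was higher and 2 were lower (33.3%), or 5 and 3 with the replicate block. Markers of mast cells and basophils (4.78 to 9.10 CPM in CM wells, 13.5 to 16.5 CPM in untreated wells, Mcpt4 at 0 throughout) and of dendritic cells (8.57 to 13.9 CPM in CM wells, 18.1 to 25.4 CPM in untreated wells) were scarce and lower in CM. Stromal markers summed to 28.7 to 87.9 CPM in CM wells and 14.9 to 64.2 CPM in untreated wells, with a median log2 fold change of 0.54 and 0 of 5 called (3 higher with the replicate block described below). Epithelial markers summed to at most 1.41 CPM in any well. The part of these cells in the results below was not tested. In such bulk samples fewer cells of a type and less RNA per cell cannot be told apart.

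The respiratory chain passes electrons from NADH and succinate through complexes I to IV to oxygen, and complexes I, III and IV pump protons across the inner membrane. Complex V, the ATP synthase, lets the protons back and makes ATP. The mitochondrial genome codes for a small core of subunits in all of these except complex II, and the nucleus codes for the rest, so assembly needs products of both genomes. Macrophages are known to shift between oxidative phosphorylation and glycolysis with their activation state.

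Most subunit genes differed little between the groups. With edgeR's quasi-likelihood test and Benjamini-Hochberg adjustment over all genes, 8 of 89 members changed in CM (adjusted p under 0.05), 8.99% of them, where 27.9% of the 13853 tested genes did. Of the 8, 2 were higher in CM (Ndufv3 and mt-Cytb) and 6 were lower (Ndufb7, Uqcrc1, Atp5j2, Atp5g1, Atp5b and Atp5l). By direction, 12.6% of all tested genes were higher and 15.2% lower. The members' median log2 fold change was -0.02 with quartiles of -0.07 and 0.07, and the quartiles over all tested genes were -0.17 and 0.17. Among genes with a mean of at least 10 CPM, 8 of 81 members (9.88%) and 35.5% of 8277 genes were called, at a similar median standard error (SE) of 0.06 in both. The log2 fold change was at most 0.37 in size for 87 of the 89 members and for 73.2% of all tested genes. A 95% interval inside 1.5-fold in either direction was found for 83 of the 89 members (93.3%) and for 60.9% of all tested genes. At 10 CPM or more it was found for all 81 members and for 86.3% of genes.

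**Figure D1:**
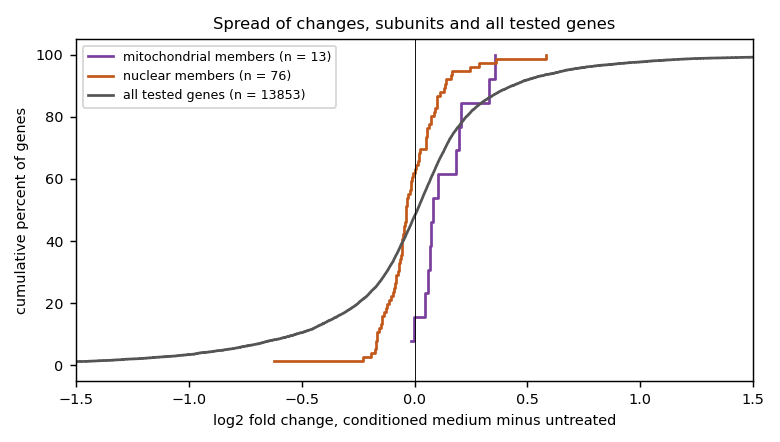
Cumulative percent of genes (y axis) by log2 fold change, CM minus untreated (x axis), for the 13 mitochondrial members, the 76 nuclear members and all 13853 tested genes. The nuclear members rise steeply around their median of -0.04 and the mitochondrial members lie mostly right of 0, with a median of 0.08, while the curve of all genes is wider.

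The calls above come from the group alone and ignore the replicate numbers, although wells with the same number correlated across groups (values in the account of the processing). With the replicate number as a block the members' calls numbered 17, 7 higher and 10 lower (19.1%, where the block called 36.3% of all genes). Counts also depended on single libraries. Without CM well 1, Ndufv3 alone was still called, with 1 member higher and 0 lower. Without untreated well 2, 3 members were called (1 higher and 2 lower), and without untreated well 3 there were 5 (3 higher and 2 lower). Without scaling beyond the total count, 13 members were higher and 1 lower, with the median of all tested genes at 0.07. That setting alone called Ndufa8, Ndufv1, Atp5d, Uqcrh and mt-Co1 (log2 fold changes of 0.09, 0.09, 0.07, 0.10 and 0.08 with TMM scaling). Ndufb10 (0.11) passed there and without both wells numbered 3, Cox7a2l (0.06) only without both wells numbered 3, and Atp5o (-0.14) only without untreated well 1.

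**Figure D2:**
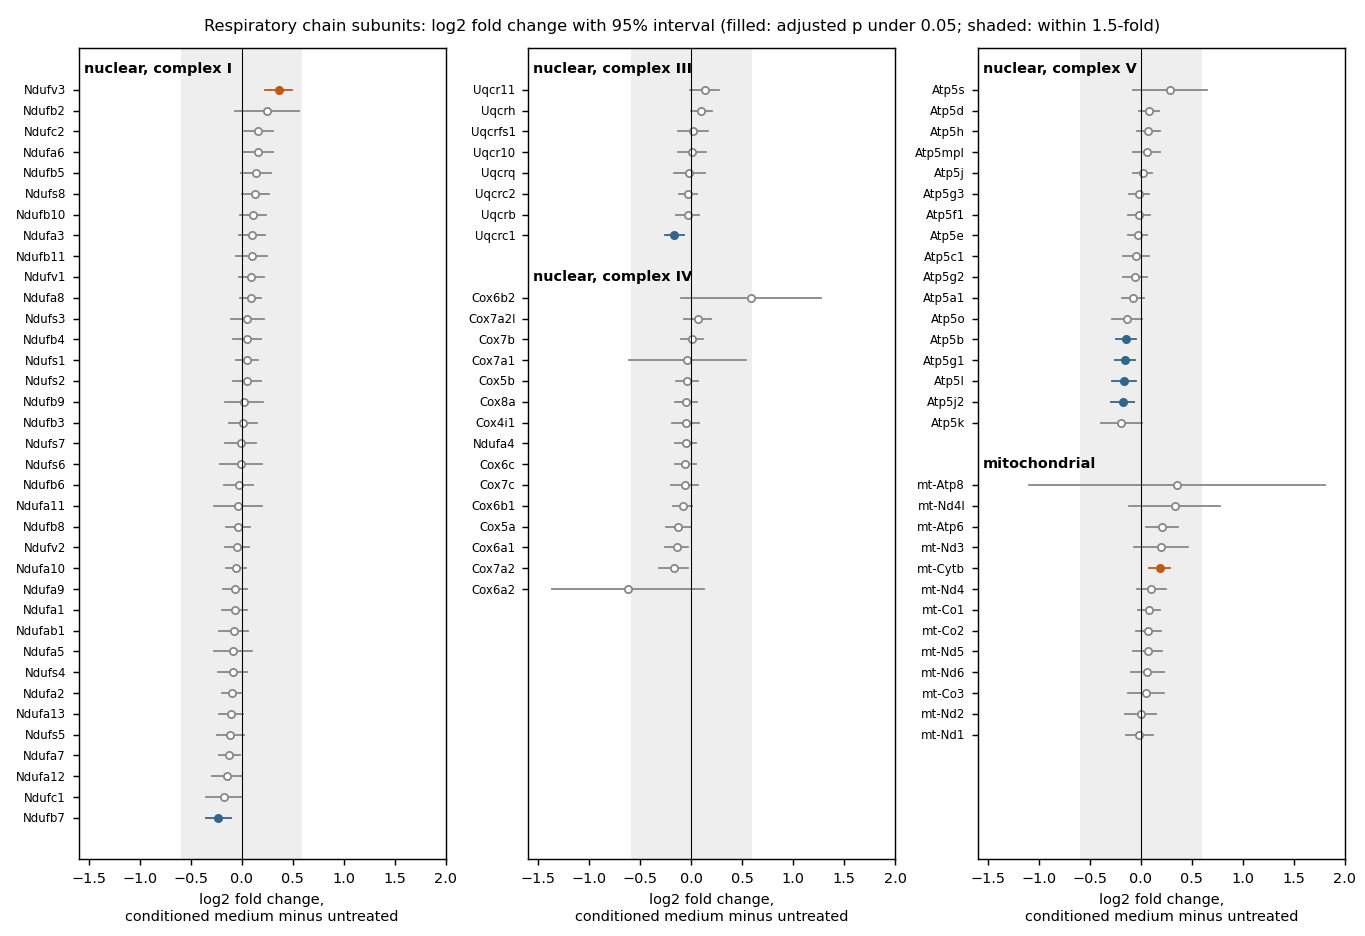
Log2 fold change, CM minus untreated (x axis), with its 95% interval for each of the 89 members, grouped by genome and complex. Filled points are the 8 members past the threshold, 2 higher and 6 lower, the shaded band spans 1.5-fold in either direction, and intervals that leave the band belong to 6 members with group means of at most 5.74 CPM.

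Complex I, the NADH dehydrogenase, has 36 nuclear members, of which 1 rose and 1 fell (5.56%). Their median log2 fold change was -0.01 and their range -0.23 to 0.36. Ndufv3, an accessory subunit of the arm that takes up NADH, was measured at 44.0, 47.0 and 43.9 CPM in CM wells, against 35.0, 32.7 and 37.2 CPM in untreated wells. Every CM well lay above every untreated well. The log2 fold change was 0.36 (SE 0.06, adjusted p = 0.0017), a 1.29-fold higher level, and it was the single member that stayed past the threshold under each of the 15 alternatives run. Ndufb7, an accessory subunit of the membrane arm, had 43.7, 47.9 and 47.1 CPM in CM wells and 56.7, 52.4 and 53.6 CPM in untreated wells. It fell without overlap between the groups (log2 fold change -0.23, SE 0.05, adjusted p = 0.0109). Of the 7 core nuclear subunits, those that carry the flavin, iron-sulfur clusters and quinone site, 0 were called by edgeR, DESeq2 or limma-voom and 1 had an unadjusted p under 0.05. Their median was 0.05. That one was Ndufs8, which holds iron-sulfur clusters, at 48.4, 49.2 and 52.3 CPM in CM wells and 43.0, 44.9 and 48.6 CPM in untreated wells. Its groups overlapped, and it passed with the block (adjusted p = 0.118 without, 0.0357 with it), without scaling and without untreated well 3. The accessory subunits Ndufc2, Ndufa6 and Ndufb5 also passed only with alternatives, at log2 fold changes of 0.16, 0.16 and 0.14. Their adjusted p was 0.0875, 0.102 and 0.151 in the fit with the group alone and 0.0305, 0.0491 and 0.0388 with the block. With the block 5 nuclear members of complex I were higher and 1 was lower (16.7%, where the block called 36.3% of all genes). Per kilobase of gene, Ndufa2 was the most abundant nuclear complex I transcript, at 87.3 CPM per kb in CM wells and 93.3 in untreated wells, a difference that was not past the threshold (adjusted p = 0.147).

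Complex III, which carries electrons from ubiquinol to cytochrome c, has 8 nuclear members with a median of -0.01. Among these 1 fell (12.5%, where 27.9% of all tested genes were called, 15.2% lower). That was Uqcrc1, a core protein that faces the matrix, with 125, 126 and 130 CPM in CM wells and 141, 140 and 146 CPM in untreated wells. The groups did not overlap (log2 fold change -0.17, SE 0.04, adjusted p = 0.0149). Its partner core protein Uqcrc2 had a log2 fold change of -0.03. The most abundant per kilobase was Uqcrh, the hinge protein at the cytochrome c1 side, with 96.6 CPM per kb in CM wells and 90.3 in untreated wells and an adjusted p of 0.139.

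Complex IV, cytochrome c oxidase, has 15 nuclear members here, with Ndufa4 counted among them because it is a subunit of that complex despite its name. edgeR called 0 of them, as did DESeq2 and limma-voom, while 3 had an unadjusted p under 0.05. The log2 fold change was below 0 for 12 of 15, with a median of -0.06. With the block 3 passed as lower, Cox6a1, Cox7a2 and Cox5a (20.0%, where the block called 36.3% of all genes, 19.3% lower). Cox6a1, the broadly expressed form of subunit VIa, had 134, 149 and 145 CPM in CM wells and 151, 162 and 161 CPM in untreated wells (log2 fold change -0.14, adjusted p = 0.0669, 0.0089 with the block). Cox7a2, the broadly expressed form of VIIa, had 42.2, 47.6 and 46.7 CPM in CM wells and 47.7, 53.0 and 53.1 CPM in untreated wells (-0.17, adjusted p = 0.0754, 0.0094 with the block). For both, the highest CM well lay just under the lowest untreated well. Cox5a overlapped between groups (-0.13, adjusted p = 0.124, 0.0434 with the block).

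Several complex IV subunits exist as paired isoforms, one broad and one linked to muscle, lung, testis or low oxygen. The broad forms dominated in both groups. Cox4i1 stood at 344, 380 and 373 CPM in CM wells and 360, 373 and 406 CPM in untreated wells, while Cox4i2, the form known to be induced by low oxygen in lung, had 4, 2 and 1 counts in CM wells and 2, 8 and 1 in untreated wells. Cox6a2, the heart and muscle form of VIa, had 15, 24 and 13 counts in CM wells and 25, 23 and 17 in untreated wells. Its log2 fold change of -0.62 was the furthest below 0 of any member, but it was not called (adjusted p = 0.202) and its interval ran from -1.37 to 0.13. Cox6b2, the testis form of VIb, had 35, 38 and 29 counts in CM wells and 17, 25 and 13 in untreated wells. At a log2 fold change of 0.58 it was the furthest above 0, also uncalled (adjusted p = 0.192). Cox6b1, its broad counterpart, gave 106, 109 and 112 CPM in CM wells and 114, 116 and 116 CPM in untreated wells (-0.08, not called). Cox7a1, the muscle form of VIIa, had 39, 34 and 29 counts in CM wells and 28, 23 and 34 in untreated wells. Cox7a2l, the related protein that joins complexes III and IV into supercomplexes, was abundant and overlapped between groups, at 312, 314 and 327 CPM in CM wells and 289, 291 and 332 CPM in untreated wells. Cox8a, the broad form of VIII, was the most abundant nuclear complex IV transcript per kilobase, at 298 CPM per kb in CM wells and 308 in untreated wells. Ndufa4 had 82.3, 82.6 and 83.6 CPM in CM wells and 82.6, 85.5 and 90.2 CPM in untreated wells (log2 fold change -0.06, adjusted p = 0.404). Its relative Ndufa4l2, known as a target of hypoxia-inducible factor, had 8, 2 and 3 counts in CM wells and 3, 2 and 1 in untreated wells. AA467197, whose product is known to take the place of Ndufa4 in inflamed macrophages, had 11, 18 and 22 counts in CM wells and 15, 17 and 24 in untreated wells.

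Complex V held 4 of the 8 calls. Of its 17 nuclear members, 4 fell and 0 rose (23.5%, with 27.9% of all genes called in either direction and 15.2% lower), 12 had a log2 fold change below 0, and the median was -0.05. Atp5b, the catalytic beta subunit of the F1 head, had 511, 518 and 527 CPM in CM wells and 562, 564 and 597 CPM in untreated wells. The CM wells were all lower (log2 fold change -0.15, SE 0.04, adjusted p = 0.0320). Atp5a1, the alpha subunit that alternates with it and the most abundant nuclear complex V transcript per kilobase (167 CPM per kb in CM wells, 176 in untreated wells), had -0.07 and was not called (adjusted p = 0.289). Atp5g1, one of 3 genes for the same subunit of the rotating c ring, had 45.2, 47.2 and 45.9 CPM in CM wells and 49.8, 51.7 and 52.6 CPM in untreated wells. It fell (-0.16, SE 0.05, adjusted p = 0.0303), while the more abundant Atp5g2 (-0.06) and Atp5g3 (-0.02) did not pass, and whether the 3 differ among themselves was not tested. Atp5j2 and Atp5l code for subunits f and g, small membrane proteins by the ring. Atp5j2 had 77.2, 80.1 and 80.1 CPM in CM wells and 83.5, 92.3 and 92.6 CPM in untreated wells (-0.18, SE 0.05, adjusted p = 0.0285). Atp5l had 97.7, 107 and 101 CPM in CM wells and 108, 116 and 119 CPM in untreated wells (-0.17, SE 0.05, adjusted p = 0.0436). Neither overlapped, though the gap of Atp5l was narrow. Another protein beside the ring, subunit e (Atp5k), had a log2 fold change of -0.19 and passed only with the block (adjusted p = 0.147 without, 0.0485 with it). Of the 4 members of the peripheral stalk, edgeR, DESeq2 and limma-voom called 0 and 0 had an unadjusted p under 0.05.

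The calls in complexes III and V rested on small margins. All 5 (Uqcrc1, Atp5b, Atp5g1, Atp5j2 and Atp5l) were lost without scaling and without the low-count filter, and all 5 were lost without CM well 1. The 4 of complex V were also lost without untreated well 2 or 3.

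**Figure D3:**
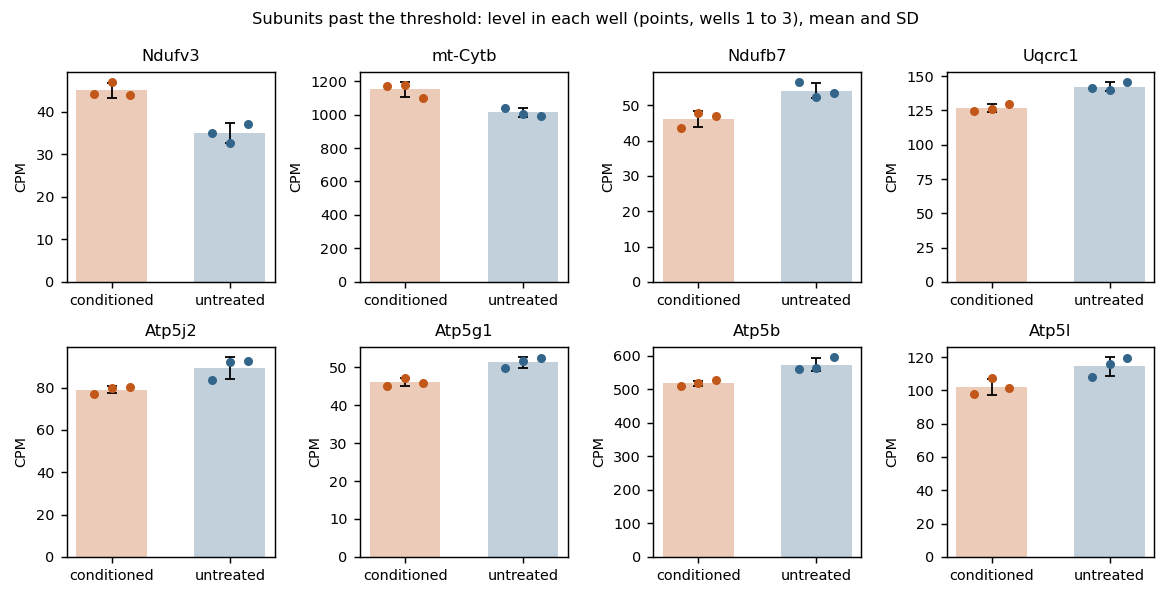
Level in CPM (y axis, from 0) of the 8 members past the threshold in each CM well (left bar) and untreated well (right bar). Points are wells, bars are means and whiskers are SD (n = 3). Ndufv3 averaged 45.0 CPM in CM and 35.0 CPM in untreated wells, and no panel has overlapping groups.

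The 13 mitochondrial members span a far wider range of levels than the nuclear ones. Per kilobase, mt-Co1, the catalytic subunit of cytochrome c oxidase, led with 4869 CPM per kb in CM wells and 4597 in untreated wells. Next came mt-Cytb, with 1005 in CM and 885 in untreated wells, and mt-Nd1 of complex I, with 983 in CM and 995 in untreated wells, in an order that differed between the groups. mt-Co2, mt-Co3 and mt-Atp6 came at 52.7, 35.1 and 31.9 CPM per kb in CM wells and 50.0, 34.0 and 27.6 in untreated wells. mt-Atp8 was lowest, at 2.33 in CM and 1.83 in untreated wells. Of the nuclear members, the highest was Cox8a.

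All of the low ones but mt-Atp8 have an annotated near-identical copy in the nuclear genome. mt-Atp8 shares 43 exonic bases with mt-Atp6, which has such a copy, and sequence between the annotated copies was not examined. The level of mt-Atp8 may therefore be uncertain in the same way. A block on chromosome 1 (GRCm38, minus strand) holds 7 annotated copies of mitochondrial genes. The reading of the genes they match depends on how reads that match both places were counted. That is not given in the sources used here. For 5 of these genes the copy covers almost the whole gene. In the GENCODE transcripts the copies of mt-Co2, mt-Atp6, mt-Co3 and mt-Nd4l were identical to the gene over 681, 678, 783 and 294 bases, and that of mt-Nd3 over 344 of 345. The copies of mt-Nd4 and mt-Co1 cover only 63.6% and 31.8% of the gene. The first 90 bases of mt-Co2 (chrMT:7013-7102, plus strand) and of its copy Gm28661 (chr1:24615476-24615565, minus strand) show a stretch where a read matches both places. They are printed without capitals because no base differs.

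mt-Co2: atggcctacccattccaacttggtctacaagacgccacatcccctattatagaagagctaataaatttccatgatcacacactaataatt
Gm28661: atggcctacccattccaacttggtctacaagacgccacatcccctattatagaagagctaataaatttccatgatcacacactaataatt

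The same held for all 681 aligned bases. The copy had 1.57 times the counts of mt-Co2, the copy of mt-Co3 1.77 times and that of mt-Atp6 2.24 times the counts of the gene. Counts of the 7 copies summed to 7880, 7634 and 6992 in CM libraries and 5582, 5542 and 5670 in untreated libraries. The 5 mitochondrial genes they nearly cover summed to 3166, 3063 and 2625 counts in CM libraries and 2172, 2188 and 2257 in untreated libraries. Levels of these 5 genes are uncertain for that reason, while mt-Nd1, mt-Nd2, mt-Nd5, mt-Nd6, mt-Cytb and mt-Atp8 have no such copy in the annotation. The counts on the copies of mt-Nd4 and mt-Co1 were 0.033 and 0.009 of those on the gene. If reads that match both places were left out, gene and copy both lose them, so these ratios cannot show that the gene was unaffected. The covered parts of mt-Nd4 and mt-Co1 are therefore uncertain too.

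**Figure D4:**
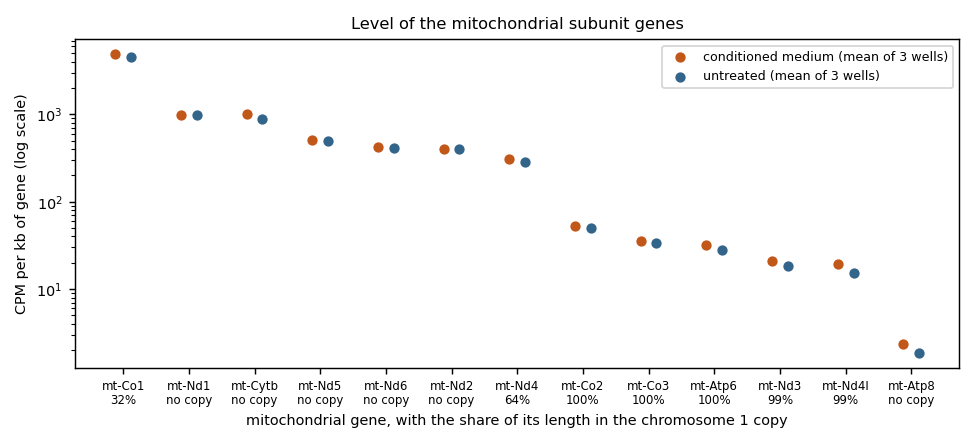
Level per kilobase (y axis, log scale, CPM per kb, mean of 3 wells) of the 13 mitochondrial members in CM and untreated wells. The second line under each name gives the share of the gene that a chromosome 1 copy covers, and the 5 genes covered almost whole lie at 52.7 CPM per kb or less.

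Of the 13 mitochondrial members 1 rose and 0 fell in edgeR (7.69%, where 27.9% of all tested genes were called, 12.6% higher). In edgeR 2 had an unadjusted p under 0.05, both higher, and DESeq2 and limma-voom gave the same single call. With the block 2 were higher (15.4%, where the block called 36.3% of all genes, 17% higher). mt-Cytb, the cytochrome b of complex III and its only subunit encoded in mitochondria, was at 1172.5, 1180 and 1098 CPM in CM wells and 1042, 1005 and 991 CPM in untreated wells. The groups were apart (log2 fold change 0.18, SE 0.05, adjusted p = 0.0173), and the call was lost without CM well 1, CM well 2 or untreated well 2. mt-Atp6, the proton channel subunit of complex V, had 23.0, 21.5 and 20.7 CPM in CM wells and 19.9, 18.2 and 18.4 CPM in untreated wells. Its log2 fold change of 0.21 missed the threshold (adjusted p = 0.0510) and passed with the block (0.0198). mt-Co1 had 7405, 7528 and 7637 CPM in CM wells and 6833, 7137 and 7339 CPM in untreated wells. These also did not overlap, but the difference of 0.08 was not past the threshold (adjusted p = 0.237). It passed only without scaling beyond the total count.

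The complex I genes of the mitochondrial genome, which code for membrane-embedded subunits, overlapped between groups in every case. mt-Nd1 had 974, 981 and 868 CPM in CM wells and 960, 987 and 908 CPM in untreated wells. mt-Nd2 had 438, 440 and 377 CPM in CM wells and 424, 440 and 394 CPM in untreated wells. Both had log2 fold changes at or near 0 (-0.02 and -0.00). mt-Nd4 had 432, 450 and 399 CPM in CM wells and 422, 404 and 367 CPM in untreated wells (0.10). mt-Nd5 had 960, 950 and 905 CPM in CM wells and 966, 908 and 815 CPM in untreated wells (0.07). mt-Nd6, the one subunit read from the other strand, had 228, 230 and 207 CPM in CM wells and 219, 229 and 190 CPM in untreated wells (0.06), with the strandedness of counting not given. In each of these genes CM well 3 and untreated well 3 were the low wells of their groups. mt-Nd3 and the small mt-Nd4l had wider intervals, with log2 fold changes of 0.20 and 0.33 and adjusted p of 0.249 and 0.257. For mt-Nd4l the interval reached from -0.12 to 0.78. mt-Co2 had 37.5, 36.7 and 33.9 CPM in CM wells and 33.6, 34.0 and 35.1 CPM in untreated wells. mt-Co3 had 30.3, 27.3 and 24.9 CPM in CM wells and 25.3, 27.8 and 26.8 CPM in untreated wells. Neither of these cytochrome c oxidase subunits passed (0.07 and 0.05). mt-Atp8 had 19, 15 and 9 counts in CM libraries and 17, 9 and 1 in untreated libraries, and no difference was detectable at this depth.

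Set side by side, the medians of the 2 genomes lay on opposite sides of 0 by small amounts. Of 13 mitochondrial members 11 had a log2 fold change above 0, with a median of 0.08, and of 76 nuclear members 47 were below 0, with a median of -0.04, beside 0.01 for all tested genes. Relative to all tested genes the medians were 0.07 and -0.05. Single libraries moved them. Without untreated well 3 the mitochondrial median was 0.053 and the nuclear one -0.012, and without CM well 2 they were 0.057 and -0.057. Without scaling beyond the total count, which moves all genes, the nuclear median turned to 0.02 and the mitochondrial one to 0.14, but relative to all tested genes they were again 0.07 and -0.05. Groups did not overlap for 3 mitochondrial members, all higher, and for 18 nuclear members, 4 higher and 14 lower (23.7%), where 42.8% of all tested genes had groups that did not overlap, 21.2% higher and 21.6% lower.

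Summed over genes, mitochondrial members made up 11715, 11858 and 11581 CPM in CM wells and 10958, 11201 and 11093 CPM in untreated wells. The groups were apart. Nuclear members summed to 6194, 6402 and 6350 CPM in CM wells and 6316, 6400 and 6722 CPM in untreated wells, which overlap. By complex, the nuclear sums overlapped for I (1531, 1570 and 1546.5 CPM in CM wells, 1518, 1511 and 1566 in untreated wells), III and IV. For complex V they were 2424, 2493 and 2464 CPM in CM wells and 2497, 2554 and 2688 CPM in untreated wells, apart by a gap of a few CPM.

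The ratio of mitochondrial to nuclear counts within a library does not depend on scaling between libraries. It was 1.89, 1.85 and 1.82 in CM libraries and 1.74, 1.75 and 1.65 in untreated libraries, with means of 1.86 ± 0.03 in CM and 1.71 ± 0.05 in untreated libraries (SD, n = 3 each), or 1.08 times higher in CM. All CM libraries were above all untreated ones. mt-Nd6 shares exonic bases with mt-Nd5 on the opposite strand, and mt-Atp8 shares some with mt-Atp6. Without mt-Nd6, mt-Atp8 and the 5 mitochondrial genes that a nuclear copy covers almost whole the ratio was 1.84, 1.80 and 1.78 in CM libraries and 1.69, 1.70 and 1.61 in untreated libraries. mt-Co1 took 63.2% to 65.9% of mitochondrial member counts in CM libraries and 62.4% to 66.2% in untreated libraries. Without it the ratio was 0.696, 0.676 and 0.621 in CM libraries and 0.653, 0.635 and 0.559 in untreated libraries. The separation of the groups then ended, while each CM library stayed above the untreated library of the same number. The 2 mitochondrial ribosomal RNAs, which are no subunits, summed to 657, 636 and 655 CPM in CM wells and 682, 660 and 743 CPM in untreated wells, the opposite direction to the mitochondrial subunits.

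**Figure D5:**
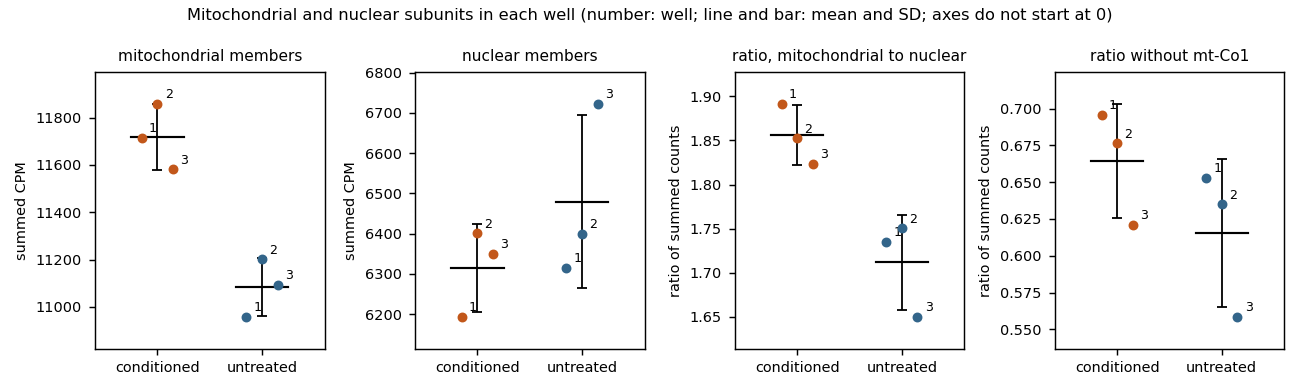
Summed CPM of mitochondrial and of nuclear members, and ratio of mitochondrial to nuclear summed counts with and without mt-Co1 (y axes, not from 0), for each numbered well of CM (left) and untreated (right), with mean and SD (n = 3). The ratio is 1.82 to 1.89 in CM and 1.65 to 1.75 in untreated wells, and the groups overlap once mt-Co1 is left out.

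Windows of 300 bases around the RefSeq start (GRCm38.p6, 250 before and 50 after) were found for 64 of the 76 nuclear members, in 69 windows. They were searched on both strands for motifs of factors known to act on respiratory genes. The canonical motif of nuclear respiratory factor NRF1 was in 7.25% of member windows and 0.971% of all 32851 windows, the YY1 motif AAGATGGC in 14.5% and 2.75%, the GABPA motif CCGGAAG in 20.3% and 8.86%, and the ERR-alpha motif TCAAGGTCA in 1.45% and 0.423%. The hypoxia response cores ACGTG or GCGTG were in 62.3% and 43.8%. All members are protein coding, and in the 21262 windows of protein-coding genes most shares were higher than in all windows. They were 1.33% for NRF1, 3.05% for YY1, 11.6% for GABPA, 0.334% for ERR-alpha and 49.3% for the hypoxia response cores. The ERR-alpha share of the members was 1 window of 69. ACGTG and GCGTG share the letters CGTG. A match is a description of the letters and not a site. Of the 6 nuclear members that fell, 1 held the NRF1 motif (Uqcrc1), 1 the YY1 motif (Atp5j2), 2 the GABPA motif (Atp5l and Ndufb7) and none that of ERR-alpha, while the window of Ndufv3 held none of these 4 motifs. The hypoxia response cores were in the windows of 4 of the 6 and in that of Ndufv3, which had 4 matches. Windows of 3 called members are shown to set a rise beside falls, Uqcrc1 (chr9:108936398-108936697, plus strand) with its NRF1 match in capitals, Atp5j2 (chr5:145191492-145191791, minus strand) with its YY1 match in capitals, and Ndufv3 (chr17:31519865-31520164, plus strand).

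Ndufv3: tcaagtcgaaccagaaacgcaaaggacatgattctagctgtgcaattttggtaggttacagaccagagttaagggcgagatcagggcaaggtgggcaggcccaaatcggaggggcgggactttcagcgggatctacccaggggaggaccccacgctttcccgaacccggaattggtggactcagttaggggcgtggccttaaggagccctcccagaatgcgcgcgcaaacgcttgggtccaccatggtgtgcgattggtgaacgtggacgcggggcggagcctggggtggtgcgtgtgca
Uqcrc1: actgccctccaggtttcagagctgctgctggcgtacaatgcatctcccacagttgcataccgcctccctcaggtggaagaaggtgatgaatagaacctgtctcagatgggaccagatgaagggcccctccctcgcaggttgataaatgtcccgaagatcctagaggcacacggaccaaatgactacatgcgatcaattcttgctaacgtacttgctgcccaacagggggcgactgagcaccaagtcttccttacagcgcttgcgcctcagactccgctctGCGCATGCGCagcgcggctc
Atp5j2: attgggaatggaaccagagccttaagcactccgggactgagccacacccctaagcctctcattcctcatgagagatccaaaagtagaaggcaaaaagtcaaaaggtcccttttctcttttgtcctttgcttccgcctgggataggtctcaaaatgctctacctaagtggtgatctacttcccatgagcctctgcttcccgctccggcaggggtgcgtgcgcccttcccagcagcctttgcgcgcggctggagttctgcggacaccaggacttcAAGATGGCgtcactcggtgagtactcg

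Genes of related steps were counted in the same fit, where 27.9% of all tested genes were called. Of 41 tested assembly factors 2 rose and 2 fell (9.76%), with a median of -0.02. The counts were 2 and 4 with the block, 1 and 1 with DESeq2, 0 and 0 without CM well 1, and 1 to 3 higher and 1 to 2 lower without any other single library. Without scaling the median turned to 0.04. Those furthest from 0 were Lyrm7, a chaperone of the complex III iron-sulfur protein, at 0.45 ± 0.06 CPM in CM wells and 0.83 ± 0.09 CPM in untreated wells (SD, n = 3 each, log2 fold change -0.90, adjusted p = 0.0471, 0.0593 with the block), Cox15 of heme A synthesis (-0.26, adjusted p = 0.0148) and Surf1 of complex IV assembly (0.20, adjusted p = 0.0465). Of 77 tested mitochondrial ribosomal proteins 3 rose and 4 fell (9.09%, median 0.00), with Mrps18b (-0.45), Mrps6 (-0.41) and Mrps18a (-0.34) furthest from 0. The counts were 5 and 4 with the block, 8 and 3 without scaling, 1 and 2 with DESeq2, 0 and 2 without CM well 1, and 1 to 3 higher and 2 to 4 lower without any other single library.

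Of 30 tested genes for complex II, ubiquinone, cytochrome c and other electron carriers, 3 rose and 3 fell (20.0%, median -0.03). The counts were 4 and 6 with the block, 4 and 2 without scaling (median 0.03), 2 and 2 with DESeq2 and without CM well 1, untreated well 1 or untreated well 2, 2 and 3 without CM well 2, and 3 and 5 without CM well 3. Cycs, the cytochrome c that links complexes III and IV, had 38.6, 40.3 and 39.7 CPM in CM wells and 46.6, 49.9 and 53.9 CPM in untreated wells. It fell by 0.34 on the log2 scale (SE 0.06, adjusted p = 0.0023), further than any called subunit. Etfdh, which passes electrons from fatty acid oxidation to ubiquinone, rose (0.26, adjusted p = 0.0063), as did Aifm1, a protein of complex I import and assembly (0.26, adjusted p = 0.0090).

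Regulators of mitochondrial gene expression counted 42 tested genes, 5 higher and 4 lower (21.4%, median 0.04). The counts were 8 and 4 with the block and 12 and 3 without scaling (median 0.10). The number higher was 1 without CM well 1 or untreated well 2, 2 without untreated well 1 and 3 without CM well 3, while 3 to 4 were lower without any single library. Polg2 and Twnk, the accessory subunit of the mitochondrial DNA polymerase and the replicative helicase, rose (0.44 and 0.39, adjusted p = 0.0089 and 0.0184), and Hsd17b10, a subunit of mitochondrial RNase P, fell (-0.38, adjusted p = 0.0015). Of 25 genes often used for mitochondrial mass 4 fell and 0 rose (16%, median -0.07). With the block 7 fell, with a filter at a mean of 1 CPM 6 did, and without any single library 3 to 5 did. Without scaling 3 fell and the median was -0.01. They were led by the chaperonins Hspe1 and Hspd1 (both -0.37, adjusted p = 0.0012 and 0.0039) and the outer membrane channel Vdac2 (-0.25, adjusted p = 0.0018).

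Of 14 tested genes linked to low oxygen, 8 rose and 0 fell (57.1%, median 0.33), the highest share among these lists. The lists were chosen with earlier results of these data known, so this order is a description only. The block called 8 and 1, and 7 to 8 were higher without any single library. RLE scaling, a filter at a mean of 1 CPM, protein-coding genes only and the omission of CM well 2 also gave 1 lower. Hif1a, the oxygen-regulated transcription factor subunit, had 261 ± 12.3 CPM in CM wells and 101 ± 4.45 CPM in untreated wells (SD, n = 3 each, log2 fold change 1.37, adjusted p = 4.57e-07). Bnip3, a mitophagy receptor, had 28.6 ± 1.02 CPM in CM wells and 12.4 ± 1.06 CPM in untreated wells (SD, n = 3 each). Its log2 fold change was 1.21, and that of Egln3, an oxygen-sensing prolyl hydroxylase, was 1.66. No difference between lists was tested.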

How the data were processed

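Poly(A)-enriched RNA of 6 wells was sequenced. The authors deposited raw counts, whole numbers for each gene and library. HISAT2, featureCounts and the build GRCm38 are named in the submitters' processing notes. Their versions, the strandedness of counting and the treatment of reads that match several places are not stated in the labels, so 39 members that share exonic bases with another gene are uncertain to that extent. Only 3 share 20 percent or more (Ndufb6 with Smim27, Ndufa13 with Tssk6, mt-Atp8 with mt-Atp6). Of 55421 genes, 55240 matched GENCODE M21, which supplied symbols and transcripts. Promoter windows are from RefSeq GRCm38.p6.

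Genes were kept by filterByExpr, scaled by TMM and tested with the quasi-likelihood test of edgeR 4.0.16 (with limma 3.58.1 under R 4.3.3) with the group alone, Benjamini-Hochberg adjusted over 13853 genes, threshold 0.05. All 89 members passed the filter. Every adjusted p is from this test unless another is named, and intervals use the SE derived from its F statistic. Total counts of 24179548 to 30040682 limit precision for members of a few CPM. The labels' replicate numbers are shared by the groups. Over 13853 genes, deviations from the group means correlated at 0.328, 0.161 and 0.309 between same-numbered wells and at -0.289 to 0.0112 between others. Wells of the same number may therefore be pairs, which rests on this check and not on a label. The main fit does not use the number, so its calls and adjusted p are unpaired. A fit with the number as a block is given where it changes the call of a named gene or a count by over 1.5 times.

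Named genes were members past the threshold, all mitochondrial members, the most abundant nuclear member per kilobase of each complex, isoform groups, members that only an alternative called, and from each pathway list the 3 furthest from 0 past the threshold. For sums, levels and ratios no test was run. Alternatives were RLE scaling, no scaling, DESeq2 1.42.0, limma-voom, the replicate block, protein-coding genes only, no low-count filter, a filter at a mean of 1 CPM, and the omission of each library in turn. Leaving out both wells numbered 3, and leaving mt-Co1 out of the ratio, were added after the data were seen. The script for the fit was tested on simulated data. Members and lists were chosen with earlier results of these data known.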

Additional observations from a re-analysis of the deposited data

Results flagged for a closer look

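A nuclear copy that the comparisons of the subunits do not use differed between the groups. Gm10925, annotated on chromosome 1 (GRCm38, 24613974 to 24614651, minus strand) and identical to mt-Atp6 over 678 bases, averaged 49.4 CPM in CM wells and 41.4 CPM in untreated wells (log2 fold change 0.26, SE 0.05, adjusted p = 0.0069 with edgeR). Its direction is that of mt-Atp6 itself, at 0.21, and reads from the gene and from the copy cannot be told apart in these counts.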

How the results depend on the processing

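Members higher and lower in CM numbered 2 and 6. They were 7 and 10 with the replicate block, 13 and 1 without scaling beyond the total count, 4 and 1 without the low-count filter, and 6 and 3 without both wells numbered 3. Leaving out one library gave 1 to 4 higher and 0 to 7 lower. Without scaling the nuclear median was 0.022 and the mitochondrial median 0.14. Without one library the mitochondrial median ranged from 0.053 to 0.12 and the nuclear median from -0.057 to -0.012. The log2 ratio of mitochondrial to nuclear counts, CM minus untreated, was 0.12, ranged from 0.09 to 0.13 without one library, and was 0.17 as a mean of log2 (count + 1) over members, where the groups overlapped. RLE scaling and limma-voom called the same 8 members, DESeq2 called 7 (without Atp5g1), and a mean of at least 1 CPM or protein-coding genes only added mt-Atp6. The 8 called subunits kept their direction under the alternatives run. Over these and the other mitochondrial members, the sign changed in 14 of 299 pairs of a gene and an alternative, each for a gene that was not called. Genes named from other lists were followed only through the counts of their lists. All-gene calls were 3861, and 2725 to 3654 without one library. No cause of these shifts was tested. Depth limits the 6 members with wide intervals (mt-Nd4l, mt-Atp8, Cox6a2, Cox6b2, Cox7a1 and Atp5s), for which a 1.5-fold change lies inside the interval.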
